A study of Mus musculus with 6 samples.

Results

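The adipogenic programme was followed through 10 of the 43432 genes in each deposited count table: the transcription factor genes Pparg, Cebpa, Cebpb, Cebpd and Zfp423, the lipid carrier gene Fabp4, the lipid droplet coat genes Plin1 and Plin2, the hormone gene Adipoq and the receptor gene Lepr. They were chosen by symbol as the regulators and early products of fat cell formation, and each matched a single Ensembl identifier. Reads were counted per gene in 3 libraries labelled FID and 3 labelled Control, all with skeletal muscle as the source and the tag D3 in the title, and neither abbreviation is spelled out in the sources used here. The series describes mice in which Igf1 was deleted in fibro-adipogenic progenitors (FAPs), the mesenchymal progenitor cells resident in muscle. The labels do not name the Cre line or the floxed allele, nor the sex of each library, and mice of both sexes were used. Per the labels' protocols, the mice of both groups were given tamoxifen in corn oil at 100 ug per g of body weight for 5 days, starting at 12 to 13 weeks of age, followed by a washout of at least 1 week. The treatment label adds that muscles were frozen in embedding medium, and the protocols describe RNA from tissue and from primary FAPs without saying which was sequenced. Separate animals are not stated as the origin of the 3 libraries of a group. The p-values below therefore measure the spread between these libraries alone, and that spread may be technical.

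FAPs are the main source of the fat cells that can appear in injured muscle. In cultured preadipocytes the programme runs as a cascade: C/EBPβ and C/EBPδ are switched on early and activate the genes of PPARγ and C/EBPα, which then maintain each other and turn on the lipid-handling and hormone genes of the fat cell. Several of these genes also work outside fat. C/EBPβ and C/EBPδ take part in inflammatory responses, Fabp4 is abundant in capillary endothelium and macrophages, and Plin2 coats lipid droplets in many cell types, foamy macrophages among them.

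Gene counts summed to between 8750157 and 9676812 in the FID libraries and between 5201853 and 10093757 in the Control libraries, with Control 1 the shallowest. Igf1, the gene the model deletes, differed by -0.01 on the log2 scale, FID over Control (standard error, SE, 0.28; edgeR adjusted p 0.99), so its whole-gene count does not check the labels. Myofibre transcripts were scarce although the source is given as skeletal muscle: 12 myofibre markers together made up 27.0 to 48.7 CPM (counts scaled by library size and TMM factor) in the FID libraries and 16.1 to 90.6 CPM in the Control libraries. FAP markers (14 genes) summed to 33540 to 46520 CPM in the FID libraries and to 61750 to 69600 CPM in the Control libraries. Col1a1, Col1a2 and Col3a1 made up most of these sums, with means of 11860, 11230 and 10310 CPM in FID. In Control they averaged 21990, 18590 and 18390 CPM. Ly6a went the other way, at 497, 2327 and 1890 CPM in FID 1, 2 and 3. It measured 434, 446 and 661.5 CPM in Control 1, 2 and 3. The other 13 markers had a log2 fold change below 0 (47.8% of all genes tested lay above 0). Control 1 stood apart by its vessel markers. Over 10 pericyte and smooth muscle markers the sum was 1299, 1510 and 1282 CPM in FID 1, 2 and 3, against 2997, 1672 and 1444 CPM in Control 1, 2 and 3. Neutrophil markers (8 genes) summed to 85.2 to 106 CPM in FID and 58.5 to 95.7 CPM in Control.

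Plin2 was the member that differed most by p, and it was higher in FID. Cebpa was also higher in every FID library, by a small margin. Cebpb and Cebpd stood 1.98-fold lower in FID, but their groups overlapped. Pparg was higher on average in FID and Zfp423, Fabp4 and Lepr lower, each with overlapping groups, and Plin1 and Adipoq were close to the limit of detection in both groups. Of the 10 members, 8 passed the filter on low counts and were tested. With edgeR (quasi-likelihood F, Benjamini-Hochberg adjustment over 12881 genes), 0 of the 8 passed an adjusted p of 0.05, as did 0 genes overall (0%). An unadjusted p under 0.05 was reached by 2 members higher in FID (9.81% of all genes tested) and by 2 members lower in FID (9.21%), or 19.0% of all genes in either direction. DESeq2 called 1 member, Plin2, higher in FID (3.60% of the genes it tested) and 0 lower (2.18%), against 5.78% of genes in either direction. Sample-weighted limma-voom called 3 members (11.9% of all genes).

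**Figure D1:**
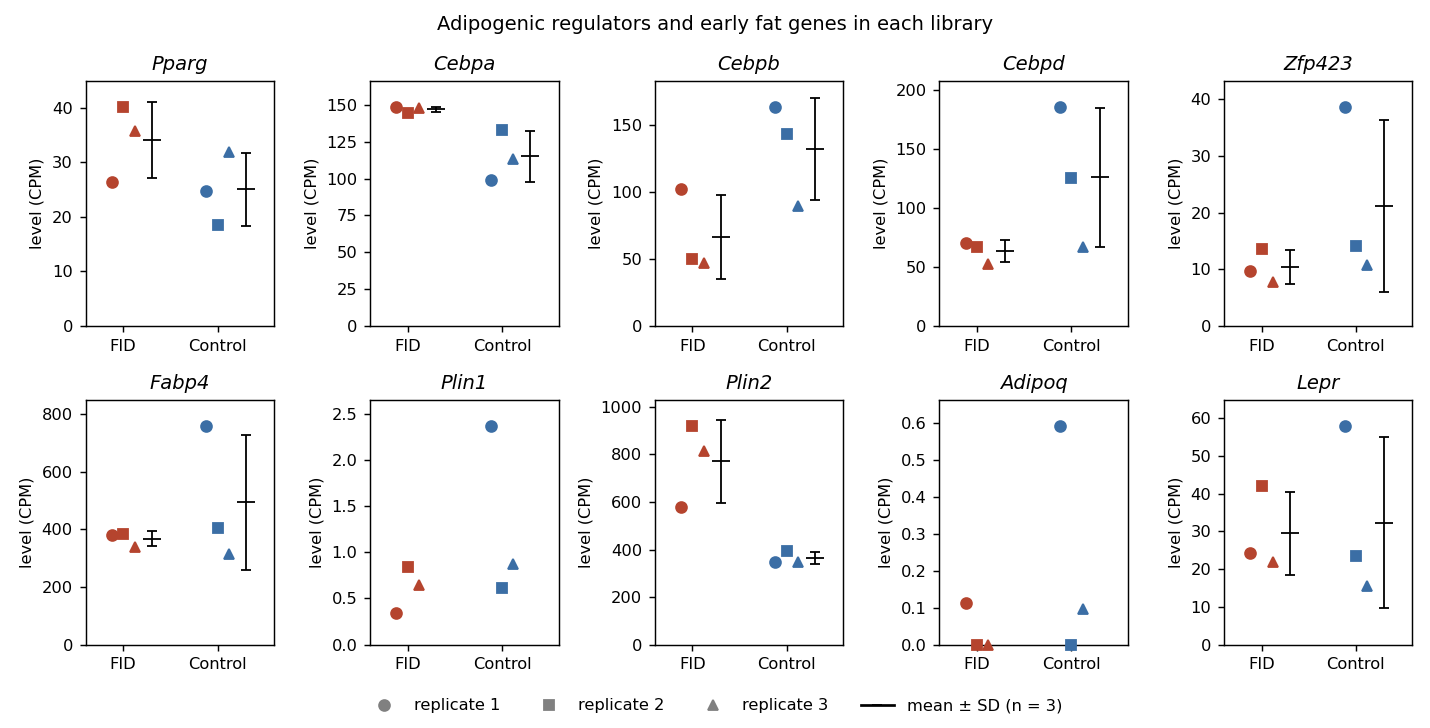
Level of each of the 10 genes in CPM (y axes, each starting at 0) in the 3 FID and the 3 Control libraries, with symbols for the replicate numbers and bars for mean ± SD (n = 3) of the tested genes. The groups are apart for Plin2 and Cebpa, and Control 1 is the highest library for Cebpb, Cebpd, Zfp423, Fabp4, Plin1, Adipoq and Lepr.

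The commitment factor and the early regulators come first in the cascade. Zfp423 (ENSMUSG00000045333, mm10 chromosome 8, 87661810 to 87959595, minus strand) encodes a zinc finger protein that marks committed preadipocytes and raises Pparg. It stood at 9.69, 13.7 and 7.78 CPM in FID 1, 2 and 3, against 38.6, 14.1 and 10.8 CPM in Control 1, 2 and 3. The high mean of the Control group rested on Control 1, and the other 2 Control libraries lay within or just above the FID range. In log2 terms the difference was -0.995 (SE 0.48, edgeR adjusted p 0.31), and without Control 1 it was -0.27 (edgeR adjusted p 0.628). Over the 14 alternatives its adjusted p ranged from 0.188 to 0.723. Pericyte markers were also highest in Control 1, and their part in the Zfp423 value was not tested.

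Cebpb (ENSMUSG00000056501, chromosome 2, 167688915 to 167690418, plus strand), a gene with 1 exon, measured 102, 50.1 and 47.1 CPM in FID 1, 2 and 3, against 163, 143 and 89.6 CPM in Control 1, 2 and 3. FID 1 lay above Control 3, and the other FID libraries lay below the whole Control group. The means were 66.5 ± 31.1 CPM in FID and 132 ± 38.1 CPM in Control (SD, n = 3 each), equal to -0.99 in log2 fold change (SE 0.35, approximate 95% interval -1.80 to -0.17, edgeR adjusted p 0.20). Without FID 1 the log2 fold change was -1.42 (edgeR adjusted p 0.0509), and with Control 1 and FID 1 both left out it was -1.24 and passed (edgeR adjusted p 0.018). The adjusted p ranged from 0.018 to 0.521 over the 14 alternatives.

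Cebpd (ENSMUSG00000071637, chromosome 16, 15887286 to 15891031, plus strand) measured 70.8, 67.0 and 52.8 CPM in FID 1, 2 and 3, against 186, 126 and 67.5 CPM in Control 1, 2 and 3. The groups overlapped through Control 3, which lay below FID 1. The estimate was -0.99 in log2 fold change (SE 0.34, edgeR adjusted p 0.19), and it was -0.61 without Control 1 (edgeR adjusted p 0.261), within a range of 0.0436 to 0.506 in adjusted p over the 14 alternatives. The Cebpb to Cebpd count ratio was 1.45, 0.748 and 0.892 in FID and 0.879, 1.14 and 1.33 in Control, and the groups overlapped (exact permutation p = 0.8). Both genes share exonic sequence with a gene on the opposite strand, Cebpb 312 bp with Tmem189 and Cebpd 562 bp with Spidr. Whether counting used the strand is not given in the sources used here.

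Pparg and Cebpa, the pair that holds the fat cell state, were both higher on average in FID. Macrophage markers were higher in FID too, with a mean sum 1.88 times that of Control. The part of macrophage RNA in the Pparg and Cebpa levels, or in the Cebpa ratios below, was not tested. Pparg (ENSMUSG00000000440, chromosome 6, 115360951 to 115490399, plus strand) measured 26.5, 40.1 and 35.8 CPM in FID 1, 2 and 3, against 24.7, 18.6 and 31.9 CPM in Control 1, 2 and 3. FID 1 lay below Control 3, so the groups overlapped. The log2 fold change was 0.44 (SE 0.24, approximate 95% interval -0.12 to 1.01, edgeR adjusted p 0.35). With 1 library left out it ranged from 0.271 without Control 2 to 0.683 without Control 3. Sample-weighted limma-voom gave 0.728 (adjusted p 0.0594), and over the 14 alternatives the adjusted p ranged from 0.0594 to 0.674.

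Cebpa (ENSMUSG00000034957, chromosome 7, 35119293 to 35121928, plus strand) measured 148, 145 and 148 CPM in FID 1, 2 and 3, against 98.9, 133 and 113 CPM in Control 1, 2 and 3. The FID libraries were nearly identical, with a coefficient of variation of 1.29%, whereas that of the Control libraries was 14.9%. The means of 147 ± 1.89 CPM in FID and 115 ± 17.1 CPM in Control (SD, n = 3 each) gave 0.35 in log2 fold change (SE 0.14, edgeR adjusted p 0.24). Over the 14 alternatives the adjusted p ranged from 0.198 to 0.542. The groups did not overlap for Cebpa and Plin2, 2 of the 8 tested members, and FID lay above in both (13.0% of all genes tested had FID above Control without overlap and 12.3% had FID below).

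The proportions of the C/EBP genes to each other were also read within each library, where scaling plays no part. All 8 ratios computed were chosen after the values were seen, and a gene higher in FID over a gene lower in FID gives a larger ratio than either level by construction. The count of Cebpa was 1.45, 2.89 and 3.13 times that of Cebpb in FID 1, 2 and 3, and 0.606, 0.927 and 1.26 times in Control 1, 2 and 3. Cebpa therefore had more reads than Cebpb in every FID library and fewer in 2 of the Control libraries, and the groups did not overlap. The mean ratio was 2.67 times higher in FID (exact two-sided permutation test, p = 0.1, the smallest that 3 against 3 libraries allow; 0.16 after Benjamini-Hochberg adjustment over the 8 ratios computed). The Cebpa to Cebpd ratio behaved likewise, at 2.10, 2.16 and 2.79 in FID and 0.532, 1.06 and 1.67 in Control (exact permutation p = 0.1, adjusted 0.16).

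A further list held the C/EBP family genes Cebpe, Cebpg and Ddit3, and Cebpz, which shares the name but encodes a CCAAT-binding protein outside that family. Ddit3, which encodes CHOP, a stress-induced partner that keeps C/EBP proteins from their sites, measured 11.4, 26.3 and 19.0 CPM in FID 1, 2 and 3, against 10.5, 6.995 and 9.57 CPM in Control 1, 2 and 3. Each FID library lay above the Control libraries, a difference of 1.08 in log2 units (SE 0.32, edgeR adjusted p 0.17), which DESeq2 called at an adjusted p of 0.04998. Cebpg stood at 0.08 (SE 0.12) and Cebpz at 0.14 (SE 0.15) in log2 fold change, and Cebpe did not pass the filter.

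The proximal promoters are shown for Plin2, the member with the smallest p, and for 3 regulators of the cascade, Cebpb, Cebpa and Pparg. The windows are the 250 bases before the RefSeq start (build GRCm38.p6, the assembly also called mm10), and 8 of the 10 members had at least 1 entry in the RefSeq promoter table. For Pparg the window of the most downstream of its 3 listed starts is given, the start known for the isoform enriched in fat. The gene counts do not separate the starts. Capitals mark matches, on either strand, to 6 motifs. The C/EBP motif was searched as TTGCNNAA, and the core of cAMP response elements, which CREB binds, as TGACG. The box of the nuclear factor NF-Y was searched as CCAAT, and the TATA box as TATAAA. The other two were the E-box, searched as CACGTG, and the PPAR response element, a pair of direct repeats with a spacer base.
Plin2, chr4:86670060-86670309, minus strand: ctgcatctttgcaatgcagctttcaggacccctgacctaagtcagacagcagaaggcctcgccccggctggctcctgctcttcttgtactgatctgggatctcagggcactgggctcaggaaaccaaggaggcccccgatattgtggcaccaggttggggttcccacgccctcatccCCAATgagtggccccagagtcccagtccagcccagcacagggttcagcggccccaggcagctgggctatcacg
Cebpb, chr2:167688665-167688914, plus strand: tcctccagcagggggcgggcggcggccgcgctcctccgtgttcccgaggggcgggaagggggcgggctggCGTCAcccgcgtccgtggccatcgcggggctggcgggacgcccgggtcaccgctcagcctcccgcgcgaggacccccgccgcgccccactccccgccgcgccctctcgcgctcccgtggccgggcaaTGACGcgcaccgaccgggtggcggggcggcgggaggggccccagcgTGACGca
Cebpa, chr7:35119043-35119292, plus strand: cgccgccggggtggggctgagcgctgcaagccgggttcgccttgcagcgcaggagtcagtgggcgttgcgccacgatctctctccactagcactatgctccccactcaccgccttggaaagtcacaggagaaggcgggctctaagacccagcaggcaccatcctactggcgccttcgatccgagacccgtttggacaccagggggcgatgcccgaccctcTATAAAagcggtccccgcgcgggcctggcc
Pparg, chr6:115421816-115422065, plus strand: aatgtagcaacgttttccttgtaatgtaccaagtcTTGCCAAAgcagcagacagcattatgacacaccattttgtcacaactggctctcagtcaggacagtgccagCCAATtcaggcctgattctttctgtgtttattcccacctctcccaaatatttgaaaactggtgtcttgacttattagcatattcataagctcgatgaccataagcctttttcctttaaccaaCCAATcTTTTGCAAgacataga
No 2 matches overlap in these 4 windows. The Cebpb window held 3 matches to TGACG, a motif found in 17.8% of all 32841 promoter windows of this length, and CREB is known to activate Cebpb early in adipogenesis of cultured cells. The Pparg window held 2 matches to TTGCNNAA (9.57% of all windows) and 2 to CCAAT (33.9%), the Plin2 window 1 match to CCAAT, and the Cebpa window 1 match to TATAAA (12.4%). Among the other members, Zfp423 and Plin1 had a TTGCNNAA match. None of the 12 windows of the members matched the PPAR response element (0.0335% of all windows) or CACGTG (6.02%). A match describes the letters of the window and is not evidence of binding.

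Among the lipid genes, Plin2 (ENSMUSG00000028494, chromosome 4, 86648386 to 86670060, minus strand), whose protein coats lipid droplets from their first formation, measured 580, 921 and 813 CPM in FID 1, 2 and 3, against 348, 394 and 349 CPM in Control 1, 2 and 3. The lowest FID library lay well above the highest Control library, and the Control libraries differed little from each other. The means were 771 ± 174 CPM in FID and 364 ± 26.4 CPM in Control (SD, n = 3 each), 2.12-fold higher in FID (log2 fold change 1.08, SE 0.19, approximate 95% interval 0.64 to 1.53, edgeR adjusted p 0.12). By unadjusted p it ranked 58th of the 12881 genes. DESeq2 called it (adjusted p 9.63e-05), as did limma-voom with sample weights (adjusted p 0.0157), edgeR with no filter on low counts (adjusted p 0.0226) and edgeR without FID 1 (log2 fold change 1.27, adjusted p 0.0207) or without both FID 1 and Control 1 (1.24, adjusted p 0.0057). Over the 14 alternatives run, its log2 fold change stayed between 0.938 and 1.27 and its adjusted p ranged from 9.63e-05 to 0.443.

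Macrophage markers were higher in the same libraries. The counts of 18 macrophage markers summed to 12660, 12760 and 9770 CPM in FID 1, 2 and 3, against 7484, 6852 and 4341 CPM in Control 1, 2 and 3, a mean 1.88 times higher. All 18 had a log2 fold change above 0 (47.8% of all genes tested). Of these, 10 had an unadjusted edgeR p under 0.05 (9.81% of all genes tested, upward). With edgeR 0 passed the adjusted test, and DESeq2 called 9 (3.60% of the genes it tested, upward). Cd14, Mrc1 and Cx3cr1 lay at only 0.05, 0.04 and 0.03 in log2 fold change. Without FID 1, and likewise without Control 3, 15 of the 18 lay above 0 and 3 below. Plin2 counts were equal to 4.58, 7.22 and 8.32% of the summed macrophage counts in FID 1, 2 and 3, and to 4.65, 5.75 and 8.03% in Control 1, 2 and 3. These proportions overlapped between the groups (means 6.71 ± 1.92% and 6.15 ± 1.72% in FID and Control, SD, n = 3 each, exact permutation p = 0.8). Lyz2 was the largest single part of the macrophage sum in each library, so the proportions lean on that gene. It measured 4302, 2193 and 1720 CPM in FID 1, 2 and 3, against 1857, 2283 and 1429 CPM in Control 1, 2 and 3. The part of macrophage RNA in the Plin2 difference was not tested. Fewer or more cells of a type and less or more RNA per cell cannot be told apart in such bulk libraries.

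**Figure D2:**
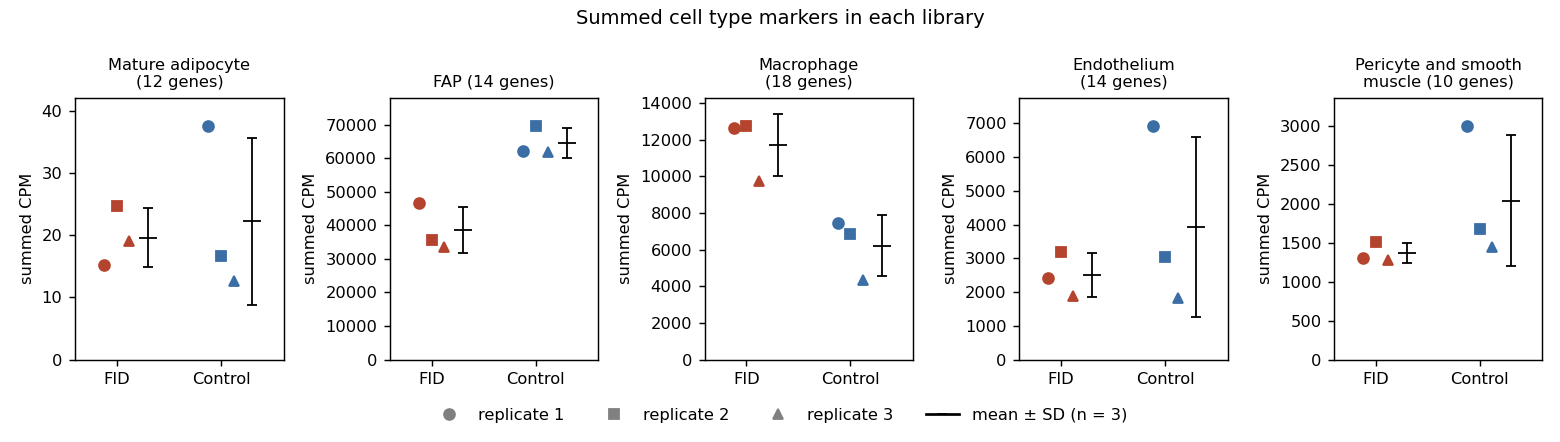
Summed CPM of marker genes of 5 cell types (y axes from 0) in the 3 FID and the 3 Control libraries, with bars for mean ± SD (n = 3). Macrophage sums are higher and FAP sums, mostly of collagen genes, lower in each FID library than in any Control library. Control 1 is highest for endothelium, pericytes and the sparse adipocyte markers.

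Fabp4 (ENSMUSG00000062515, chromosome 3, 10204088 to 10208576, minus strand), the fatty acid carrier abundant in fat cells, measured 381, 383 and 338 CPM in FID 1, 2 and 3, against 759, 404 and 316 CPM in Control 1, 2 and 3. Control 1 had about the level of the other 2 Control libraries combined, and the rest of the libraries lay between 316 and 404 CPM. Its log2 estimate was -0.42 (SE 0.31, edgeR adjusted p 0.48), and it was 0.03 without Control 1 (edgeR adjusted p 0.935), so its sign rested on that library. Its adjusted p lay between 0.232 and 0.953 in all 14 alternatives. Endothelial markers had the same outlying library, with a sum over 14 genes of 2428, 3199 and 1889 CPM in FID 1, 2 and 3, against 6926, 3034 and 1839 CPM in Control 1, 2 and 3. Fabp4 counts were equal to 15.7, 12.0 and 17.9% of that sum in FID and to 11, 13.3 and 17.2% in Control, and the groups overlapped (exact permutation p = 0.7). The part of endothelial RNA in the Fabp4 level was not tested.

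The relation of Plin2 to Fabp4 separated the groups. Plin2 counts were 1.52, 2.40 and 2.41 times those of Fabp4 in FID 1, 2 and 3, and 0.459, 0.975 and 1.10 times in Control 1, 2 and 3, with a mean ratio 2.49 times higher in FID (exact permutation p = 0.1, adjusted 0.16). Plin2 also stood higher relative to Plin3, the ubiquitous perilipin, at 6.45, 8.68 and 8.55 times in FID and 5.54, 5.22 and 4.29 times in Control (exact permutation p = 0.1, adjusted 0.16). The perilipin of mature fat cells, Plin1 (ENSMUSG00000030546, chromosome 7, 79720218 to 79732903, minus strand), was nearly absent. It had 3, 8 and 6 reads in FID 1, 2 and 3, against 12, 6 and 9 reads in Control 1, 2 and 3. Without the filter on low counts edgeR gave it no call (adjusted p 0.616), nor did DESeq2 (adjusted p 0.566).

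Adipoq, which encodes the fat cell hormone adiponectin (ENSMUSG00000022878, chromosome 16, 23146536 to 23158028, plus strand), had 1, 0 and 0 reads in FID 1, 2 and 3, against 3, 0 and 1 reads in Control 1, 2 and 3. Every library was at or under the 3 reads that a count of 0 allows, equal to 0.315 to 0.338 CPM in the FID libraries and 0.293 to 0.593 CPM in the Control libraries, so no difference was detectable at this depth. These limits allow for counting error alone, as the libraries have no molecular identifiers. Of 12 further markers of mature fat cells, Cidec, Lep, Retn and Acvr1c had no read in any library, 4 passed the filter (Aqp7, Thrsp, Lipe and Slc2a4), and the sum over the 12 was 15.2 to 24.7 CPM in FID and 12.6 to 37.6 CPM in Control. Most of that sum in each library came from Lipe alone, at 9.58 to 18.5 CPM in FID and 9.37 to 27.5 CPM in Control. Of the 10 members, Plin2 and Fabp4 were thus abundant, and the 2 that define a finished fat cell, Plin1 and Adipoq, were at or near the limit of detection.

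Lepr (ENSMUSG00000057722, chromosome 4, 101717404 to 101815352, plus strand), the leptin receptor gene and a marker of some mesenchymal stromal cells, measured 24.3, 42.1 and 21.8 CPM in FID 1, 2 and 3, against 58.0, 23.3 and 15.5 CPM in Control 1, 2 and 3. FID 2 and Control 1 each lay apart from the other libraries of their group. The log2 fold change was -0.11 (SE 0.49, approximate 95% interval -1.25 to 1.03, edgeR adjusted p 0.93), an interval that includes a doubling and a halving, and without Control 1 it was 0.60 (edgeR adjusted p 0.351; 0.214 to 0.989 over the 14 alternatives). Leptin itself, Lep, had no read in any library.

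**Figure D3:**
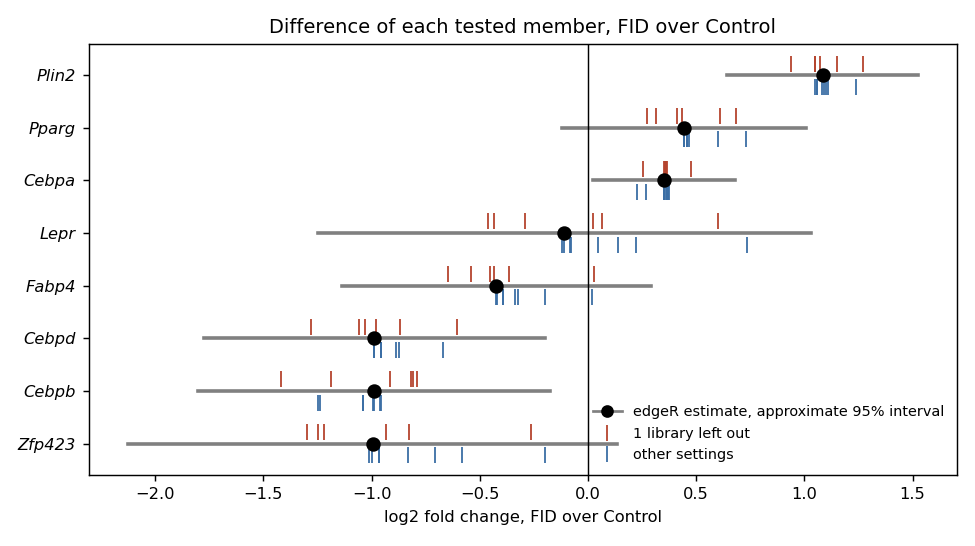
Log2 fold change of the 8 tested members, FID over Control (x axis), with the edgeR estimate as a point, its approximate 95% interval as a bar, and the values under the alternatives as ticks. Plin2 lies at 1.08, Cebpb, Cebpd and Zfp423 lie near -1, and the ticks of Fabp4 and Lepr fall on both sides of 0.

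Levels of different members were compared per kilobase of exon. The annotated exons of Fabp4, over all its transcripts, cover 4489 bp, the length of the whole gene, which lowers its value per length. In FID, Plin2 was first at 220 ± 49.6 CPM per kb, followed by Fabp4 at 81.8 ± 5.73, Cebpa at 55.7 ± 0.718, Cebpb at 44.2 ± 20.7, Cebpd at 17.0 ± 2.53 and Pparg at 11.6 ± 2.36 CPM per kb (SD, n = 3). In Control, Fabp4 was first at 110 ± 52.3 CPM per kb, followed by Plin2 at 104 ± 7.51, Cebpb at 87.8 ± 25.3, Cebpa at 43.6 ± 6.50, Cebpd at 33.7 ± 15.8 and Pparg at 8.49 ± 2.27 CPM per kb (SD, n = 3). Lepr, Zfp423, Plin1 and Adipoq held the last 4 places in both groups, with Adipoq at or under the 3 reads that a count of 0 allows. In FID the ranges of neighbours in this order overlapped for Cebpa with Cebpb and for Plin1 with Adipoq. In Control they overlapped for Fabp4 with Plin2, Plin2 with Cebpb, Cebpa with Cebpd, Pparg with Lepr, Lepr with Zfp423 and Plin1 with Adipoq.

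**Figure D4:**
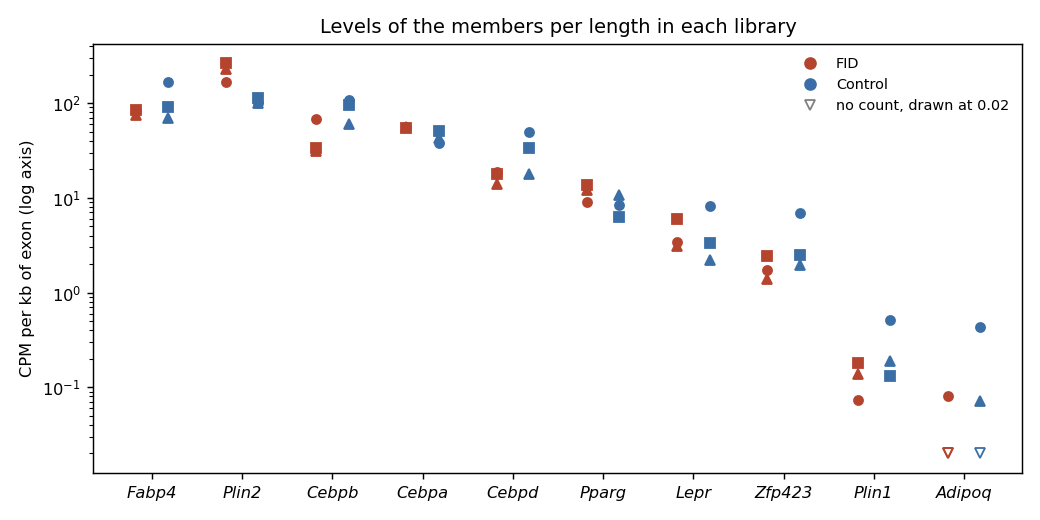
CPM per kb of summed exon length (log axis) of the 10 members in each FID and Control library, with symbols for the replicate numbers and open triangles for libraries with no read. Plin2 and Fabp4 are at the top and Plin1 and Adipoq at the bottom in both groups.

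Further genes of the pathway were read from lists by role. Among 16 genes for partners and co-regulators of PPARγ, 13 were tested, with 2 above and 11 below 0 and a median log2 fold change of -0.26, beside -0.02 over all genes tested. None passed the adjusted test, and 0 had an unadjusted p under 0.05 upward and 3 downward, 23.1% of the list beside 19.0% of all genes tested. The median was -0.12 without Control 1 and -0.095 without both Control 1 and FID 1. The 3 included the co-repressor genes Nrip1 with -0.47 (SE 0.14) and Ncor1 with -0.41 (SE 0.16), both lower in all FID libraries than in any Control library (edgeR adjusted p 0.17 and 0.22). Prdm16, a regulator of brown fat, had -0.60 (SE 0.30). Rxra, which encodes the main partner of PPARγ, had -0.08 (SE 0.11).

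Other pro-adipogenic regulators lay mostly below 0. Of 19 genes tested, 5 were above and 14 below 0, with a median of -0.25, 0 passed, and 1 had an unadjusted p under 0.05 upward and 4 downward, 26.3% of the list beside 19.0% of all genes tested. The median rested on single libraries, at -0.0912 without FID 1 and -0.457 without FID 2. Ebf1, an early factor of fat and B cells, measured 107, 101 and 111 CPM in FID, against 138, 146 and 164 CPM in Control (-0.49 in log2, SE 0.12, edgeR adjusted p 0.14), and DESeq2 called it lower in FID (adjusted p 0.0232). Klf4, known to activate Cebpb in cultured preadipocytes, measured 283, 204 and 175 CPM in FID, against 317, 364 and 367 CPM in Control (-0.66 in log2, SE 0.19, edgeR adjusted p 0.16), with a DESeq2 adjusted p of 0.0484. Nfib had -0.55 (SE 0.21). Klf5, a low gene added after its values were seen, measured 5.75, 3.78 and 3.13 CPM in FID 1, 2 and 3, against 20.6, 7.30 and 4.59 CPM in Control 1, 2 and 3, with FID 1 above Control 3 (-1.31 in log2, SE 0.56). Nr1h3, the sterol sensor LXRα that is also active in macrophages, had 0.81 (SE 0.32). FAP markers were lower in the same libraries, with 13 of 14 below 0 and a median of -0.51. Of all genes tested, 47.8% lay above 0. DESeq2 called 6 FAP markers lower (2.18% of the genes it tested) and 1 higher (3.60%). The part of FAP markers in the values of these regulators was not tested.

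Genes listed as restraints on adipogenesis also lay mostly below 0. Of 20 genes, 18 were tested, 4 above and 14 below 0, with a median of -0.40, 0 passed, and 0 had an unadjusted p under 0.05 upward and 4 downward, 22.2% of the list beside 19.0% of all genes tested. Without Control 1 the median was -0.202, with 6 genes above and 12 below 0. Wwtr1, which encodes the PPARγ repressor TAZ, had -0.63 (SE 0.20), and Gata2 had -0.94 (SE 0.33). Klf2, a repressor of Pparg that is also an endothelial gene, had -1.003 (SE 0.36). Tcf7l1, whose place among the restraints is not settled, had -0.48 (SE 0.20). The edgeR adjusted p of these 4 genes was 0.18 to 0.25. Dlk1, the classical preadipocyte inhibitor, measured 34.3, 31.0 and 11.2 CPM in FID, against 29.3, 25.4 and 16.2 CPM in Control, or 0.12 in log2 fold change (SE 0.41).

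Lipid-handling genes were split. Of 25 genes, 19 were tested, 11 above and 8 below 0, with a median of 0.003, 0 passed, and 3 had an unadjusted p under 0.05 upward and 0 downward, 15.8% of the list beside 19.0% of all genes tested. The median was -0.00846 without FID 1, 0.108 without Control 1 and 0.118 with sample-weighted limma-voom. The 3 were 2 fatty acid carriers and a perilipin. Fabp5, the carrier gene next in kind to Fabp4 and common in macrophages, measured 539, 691 and 516 CPM in FID 1, 2 and 3, against 292, 231 and 211 CPM in Control 1, 2 and 3 (1.25 in log2, SE 0.18, edgeR adjusted p 0.12), and DESeq2 called it higher in FID (adjusted p 1.27e-06). Fabp4 counts were 0.707, 0.554 and 0.655 times those of Fabp5 in FID, and 2.60, 1.75 and 1.5 times in Control, so that Fabp5 had more reads than Fabp4 in each FID library and fewer in each Control library (exact permutation p = 0.1, adjusted 0.16). Fabp3, at or below 17.0 CPM in every library, had a log2 fold change of 2.11 (SE 0.59), and Plin3 had 0.40 (SE 0.14). Mgll, the monoacylglycerol lipase gene, had -0.90 (SE 0.39).

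The adipokine and leptin genes gave 11 tested of 14, with 4 above and 7 below 0, a median of -0.19, 0 passing, and 2 with an unadjusted p under 0.05 in each direction, 36.4% of the list beside 19.0% of all genes tested. Leaving out Control 3 gave a median of -0.0333, and leaving out FID 1 gave -0.109. Nampt, an enzyme of NAD synthesis also released by fat, measured 137, 271 and 216 CPM in FID, against 112, 88.1 and 114 CPM in Control (0.99 in log2, SE 0.25, edgeR adjusted p 0.14), with a DESeq2 adjusted p of 0.0146. Socs3, the feedback inhibitor of leptin receptor signalling, had -0.95 (SE 0.34) with each FID library below the Control libraries, Cdh13, which encodes a binding partner of adiponectin, -0.98 (SE 0.42), and Leprotl1 0.35 (SE 0.14). The adiponectin receptor genes Adipor1 and Adipor2 had 0.11 (SE 0.18) and -0.14 (SE 0.18).

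**Figure D5:**
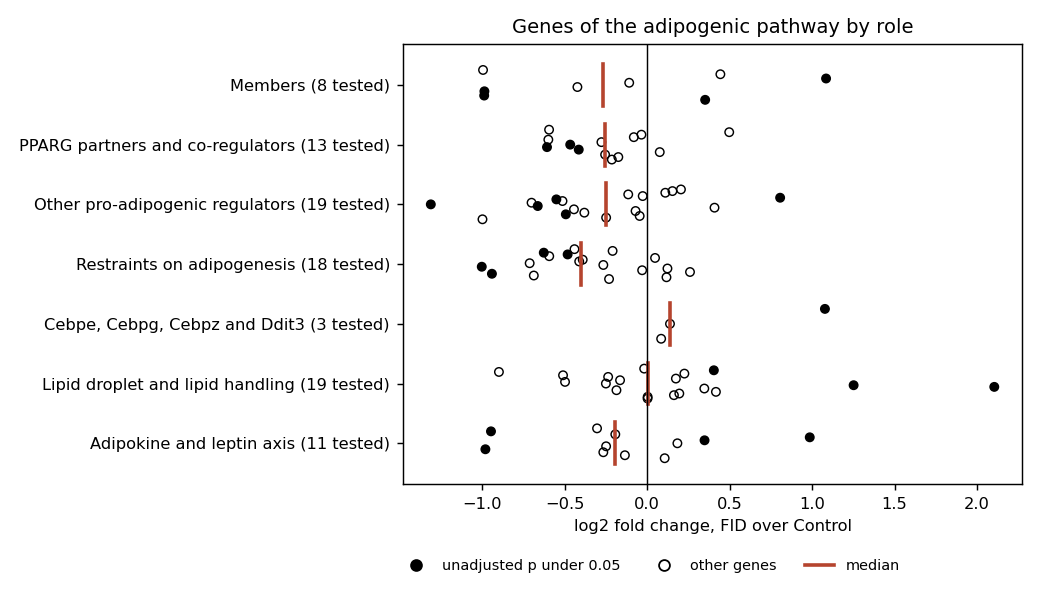
Log2 fold change, FID over Control (x axis), of each tested gene in the lists by role, with filled points for an unadjusted p under 0.05 and a vertical mark at each list's median. Fabp3, Fabp5 and Plin2 lie furthest to the right, and the medians of regulators, partners and restraints lie between -0.40 and -0.25.

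For each tested member, the genes whose log2(CPM + 1) followed it most closely over the 6 libraries were found among 9107 tested genes with a mean of at least 10 CPM. Pearson's r of the 24 closest genes ranged from 0.984 to 0.999, with group, depth and scaling shared by all genes. Picking the closest of 9107 genes over only 6 libraries gives high values by itself, so their size is not evidence of shared regulation. The 3 closest to Plin2 were the chemokine gene Ccl8 (r = 0.997), Slc16a10 and Prps2. Ccl8 measured 23.8, 50.4 and 43.2 CPM in FID and 9.49, 9.93 and 8.59 CPM in Control. Cebpb was followed most closely by Ctnnb1 (r = 0.997), Junb and Taf4b. Cebpd had Jund (r = 0.996), Ulk1 and Arhgef1 as its nearest genes, and Jund measured 67.4, 56.9 and 49.9 CPM in FID and 186, 125 and 62.6 CPM in Control. For Pparg they were Arsk (r = 0.997), Fam122b and Eloc, and for Cebpa they were Trir (r = 0.991), Akr1b3 and Atp5j. Zfp423 was followed by Egflam (r = 0.998), Cul9 and Fzd6, and Fabp4 by Arhgef5 (r = 0.998), Tspan12 and Secisbp2l. Arhgef5 measured 11.6, 11.02 and 9.18 CPM in FID and 31.6, 11.9 and 8.59 CPM in Control, with Control 1 the highest library as for Fabp4. The nearest to Lepr were Pttg1ip (r = 0.999), Fiz1 and the venular endothelial gene Ackr1. These values describe 6 libraries and were not tested.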

How the data were processed

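The authors deposited raw counts of reads per Ensembl gene, 1 table per library, from stranded total RNA libraries (1000 ng of input, integrity number over 5.6, per the labels' protocols). The submitters' processing notes name mm10 as the build and, with no role or order, cutadapt, HTSeq, STAR, Bowtie2 2.5.4, SAMtools and DESeq2. Neither the annotation release nor the strand setting is given in the sources used here. Reads assigned to no gene, 9.60% to 10.9% of each table, were left out of library sizes. These include reads matching more than 1 place, which lowers genes with near-identical copies.

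Symbols were matched for 42462 of 43432 identifiers, and lengths and coordinates are those of GENCODE M21. Counts were filtered with filterByExpr (minimum count 10, minimum total 15), scaled by TMM and tested with edgeR 4.0.16 (two-sided quasi-likelihood, group as the only term, Benjamini-Hochberg adjustment at 0.05). Each SE is the size of the log2 fold change over the square root of its F, so the 95% intervals are approximate. limma 3.58.1 and DESeq2 1.42.0 were run as alternatives. The fits were also run on simulated counts with the same dispersion for every gene. That simulation holds no gene-specific spread and no outlying library, so it does not show how the fits perform on these libraries. Libraries of a group differed by more than sampling noise (chi-square per degree of freedom 14.1 to 46.0). The labels name no batch. Named genes are the 10 members, Igf1, up to 4 genes of each pathway list with the smallest p and the 3 most like each tested member, and 1 list gene is not reported here. Klf5, Rxra, Dlk1, Adipor1, Adipor2, the FAP and macrophage markers named and the within-library ratios were added after their values were seen. The members and lists were chosen with earlier results of these data known.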

Additional observations from a re-analysis of the deposited data

How the results depend on the processing

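Cebpa, Cebpb, Cebpd, Pparg, Plin2 and Zfp423 kept their sign under the 14 alternatives run for each. The number of members, of all genes, of pathway list genes and of marker list genes past the adjusted threshold was 0 as reported. It was 1, 269, 1 and 8 with no filter on low counts, 1, 760, 6 and 18 with DESeq2, and 3, 1531, 11 and 20 with limma-voom with sample weights, whose 3 members were Plin2, Cebpb and Cebpd. It was 2, 1168, 9 and 18 with Control 1 and FID 1 left out together, the 2 members being Plin2 and Cebpb. With 1 library left out these 4 counts ranged from 0 to 1, 0 to 359, 0 to 4 and 0 to 9, the highest values coming without FID 1. The cause was not tested.

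Igf1, Lepr and Fabp4 changed sign. Igf1 had log2 fold changes of 0.0104 with library totals only, 0.0154 with no filter, 0.0602 with limma-voom, 0.377 with sample weights, 0.196 with Control 1 and FID 1 left out, and -0.266 to 0.253 with 1 library left out. Lepr had 0.137 with limma-voom, 0.224 with sample weights, 0.737 with Control 1 and FID 1 left out, and -0.46 to 0.599 with 1 library left out. Fabp4 had 0.02 with Control 1 and FID 1 left out, and -0.648 to 0.0279 with 1 library left out. No adjusted p among these was under 0.05. With the length of the longest transcript, 8 of the 10 members kept their place in the Control order, Plin2 and Fabp4 changing places.

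Deviations of libraries with the same replicate number had correlations of 0.0119, -0.295 and 0.32 for numbers 1, 2 and 3. Those of unlike numbers ranged from -0.367 to 0.312. With 3 libraries per group these values cannot settle whether the numbers pair the libraries. With a replicate block, 0 members and 0 genes passed, Lepr had 0.0443 and Igf1 0.0445.

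Depth limits Plin1, with 3 to 12 reads a library, and Adipoq, with 0 to 3. For the pathway lists whose median is printed, medians under some other settings stand beside them. The median log2 fold change of the 8 tested members was -0.266 as reported and changed sign. It was 0.141 without Control 1, 0.143 with Control 1 and FID 1 left out together, and 0.0122 with sample weights. Endothelial and pericyte marker medians were -0.632 and -0.679 as reported, and -0.0644 and -0.194 without Control 1.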
